A study of Mus musculus with 75 samples.

Results

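The mitochondrial ribosome was followed through the obstructed mouse kidney by its proteins, the mitochondrial ribosomal proteins. Members were the genes of the count table whose symbol begins with Mrpl (large subunit) or Mrps (small subunit) followed by a digit, with pseudogenes left out. The rule found 78 genes of 32245, 49 named for the large subunit and 29 for the small one, and it used no measured value. All 78 passed the filter on low counts in each of the 3 arms of the study and were tested there.

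Mitochondrial ribosomes translate the messages of mitochondrial DNA, which code for core subunits of the respiratory chain and of ATP synthase. Their RNAs come from mitochondrial DNA, but all of their proteins are encoded in the nucleus, made in the cytosol and imported. In the kidney, mitochondria are most abundant in the proximal tubule, whose cells take back most of the filtered salt, glucose and amino acids.

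Poly(A) RNA of whole kidneys was measured by Smart-seq3, a method that counts molecules by unique identifiers, in 75 libraries of adult mice. In each mouse 1 ureter was ligated (unilateral ureteral obstruction, UUO), and the obstructed and the contralateral (CL) kidney were taken 3 days later. The ABTAA arm held wild-type mice given a human IgG Fc control (8 CL and 8 UUO libraries) or ABTAA, an antibody that binds ANGPT2 and clusters it to activate the endothelial receptor TIE2 (7 and 7). The Veptp arm held Veptp iECKO mice (6 and 8), in which a tamoxifen-inducible Cdh5-CreERT2 deletes floxed Veptp, a phosphatase that restrains TIE2, from endothelium after tamoxifen at 4 weeks of age, and Veptp WT littermates (7 and 8) that carried Cdh5-CreERT2 and 1 floxed allele but were not induced. Since the controls were not induced, tamoxifen and genotype cannot be told apart in that arm. The study's methods give 7 Veptp WT mice, while 8 UUO libraries carry that label. The Pdgfb arm held Pdgfb iKO mice (4 and 4), in which Actb-CreERT2 deletes floxed Pdgfb in the whole body after tamoxifen 1 week before the experiment, and Cre-negative Pdgfb WT littermates with floxed alleles (4 and 4). The kidneys of 2 sham-operated mice are among the Pdgfb WT CL libraries and are not marked in the labels. Both sexes were used, and all mice received carprofen for pain relief.

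Library totals ran from 172827 to 2341800 counts, and the members took 0.441% to 0.870% of them, so that 1 library held 808 to 15608 member counts. Between 77 and 78 members had at least 1 count in each library. Several features of the libraries stand beside the results. The library names come in a plain form (45 libraries) and a form with a low line between letter and number (30 libraries), whose meaning the labels do not give. All groups hold both forms in the ABTAA arm and in the Veptp arm, and the Pdgfb arm holds the plain form alone. In the Veptp arm the UUO and CL libraries numbered 3, 4, 7 and 8 carry opposite genotype labels, and their deviations from the group means correlated over genes with r = 0.11 to 0.42. The 8 same-number pairs of the arm ran from 0.05 to 0.42, and 10 of 56 pairs with different numbers also had r over 0.1, up to 0.35. Ptprb, the gene of VEPTP, had a mean of 54.0 CPM (counts scaled to library size) in Veptp WT and 34.2 CPM in Veptp iECKO CL libraries, and of 51.2 and 33.3 CPM in UUO libraries, with overlapping ranges. Both means are lower in the libraries labelled iECKO. Pdgfb had a mean of 10.4 CPM in Pdgfb WT and 19.0 CPM in the CL libraries labelled Pdgfb iKO, against 52.6 and 37.1 CPM in UUO libraries. The mean thus goes with the label in UUO kidneys and against it in CL kidneys, where the libraries held 4 to 19 counts of the gene. The CL ranges overlapped, at 4.45 to 19.9 CPM in Pdgfb WT and 16.7 to 25.0 CPM in libraries labelled Pdgfb iKO. Of all tested genes 0.0% were called between the genotypes in CL kidneys. Counts of both Xist and Y-linked genes, 10 or more of each, were found in 22 of 45 plain and 2 of 30 low-line libraries.

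Promoters of the members were read first, because many genes of mitochondrial translation are known to be driven by housekeeping factors such as NRF1, the ETS factor GABPA, YY1 and SP1. RefSeq promoters (250 bases before to 50 after the start, GRCm38.p6) matched 69 of the 78 members, with 75 promoters in all. Below are the 100 bases before the start of 6 members whose values carry the results, 5′ to 3′ on the gene's strand, with the ETS core (CCGGAAG), the NRF1 core (GCGCATGC) and the GC box (GGGCGG), or their reverse complements, in capitals.
Mrpl12, chr11:120484537-120484636, plus strand: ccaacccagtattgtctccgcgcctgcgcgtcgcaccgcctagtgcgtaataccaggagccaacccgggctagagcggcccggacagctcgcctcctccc
Mrpl34, chr8:71464826-71464925, plus strand: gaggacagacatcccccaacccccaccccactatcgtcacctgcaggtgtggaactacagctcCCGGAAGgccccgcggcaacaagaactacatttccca
Mrpl47, chr3:32736756-32736855, minus strand: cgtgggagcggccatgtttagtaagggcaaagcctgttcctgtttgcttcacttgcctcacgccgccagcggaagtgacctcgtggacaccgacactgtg
Mrpl33, chr5:31613851-31613950, plus strand: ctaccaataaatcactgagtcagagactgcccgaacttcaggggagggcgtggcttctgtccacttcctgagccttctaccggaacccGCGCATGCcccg
Mrpl52, chr14:54426809-54426908, plus strand: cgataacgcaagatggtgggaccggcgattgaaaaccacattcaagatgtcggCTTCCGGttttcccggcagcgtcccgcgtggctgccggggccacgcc
Mrps26, chr2:130563657-130563756, plus strand: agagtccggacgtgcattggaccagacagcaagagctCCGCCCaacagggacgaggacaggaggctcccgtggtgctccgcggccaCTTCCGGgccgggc

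Mrps26, Mrpl34 and Mrpl52 hold an ETS core in this stretch, Mrpl33 holds an NRF1 core, and Mrpl12 and Mrpl47 hold none of the searched letters. Over the whole promoter window, the ETS core was found on either strand in 34.7% of the members' promoters, against 17.3% of the promoters of tested genes and 8.86% of all promoters. The NRF1 core was found in 10.7%, against 5.04% and 2.71%, and the YY1 core AAGATGGC in 16.0%, against 4.42% and 2.75%. The GC box was found in 52.0%, against 61.2% and 35.7%. On the gene's strand alone the members' shares were 20.0% for the ETS core, 8.0% for the NRF1 core, 10.7% for the YY1 core and 28.0% for the GC box. A match of letters is a description and no evidence of binding.

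The members differed widely in level. Per kilobase of exon, the highest mean levels over the 12 groups belonged to Mrps21, a small-subunit protein with a bacterial counterpart (205 CPM per kb), Mrpl12, the L7/L12 protein of the stalk that recruits translation factors (144), and Mrpl27 (134). The lowest belonged to Mrps10 (3.97), Mrps30 (4.61), which sits in the large subunit despite its symbol, and Mrpl3 (4.69). This order moved with the library name form. In the low-line libraries of the Veptp arm Mrpl12 (88.7 CPM per kb) and Mrpl28 (86.7) lay above Mrps21 (81.7), and the lowest was Mrpl23 (4.75). Exon length per gene ran from 607 to 8631 bases with a median of 2394. As the method counts molecules, a level need not be divided by exon length. Without that division the highest mean levels over the 12 groups were those of Mrpl47 (259 CPM), Mrpl12 (221) and Mrpl42 (180). The lowest were those of Mrpl57 (20.3), Mrps26 (27.0) and Mrps15 (27.3), so the order depends on that division. Exons of 33 members overlap those of another gene, 8 on the same strand and 28 on the other. Whether counting used strand is not given in the sources used here. Reads of overlapping genes may therefore be mixed.

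The first question was whether obstruction changes the members in control mice. In IgG-treated mice, 28 of 78 members were lower in UUO than in CL kidneys and 0 were higher (edgeR quasi-likelihood test, Benjamini-Hochberg adjusted p under 0.05 over 9579 genes). The background in that comparison was 18.2% of all tested genes lower and 16.3% higher. The median log2 fold change was −0.36 for the members and 0.02 for all tested genes, and 75 of the 78 members lay below 0. The count was 12 lower and 1 higher when libraries were scaled by their totals alone, without the TMM factors that correct for composition (background 11.3% lower and 26.0% higher), and 10 lower and 1 higher when every library was thinned to the shallowest one (18.5% and 17.0%). By symbol, 18 of 49 Mrpl members (median −0.35) and 10 of 29 Mrps members (median −0.40) were lower. The Mrps symbols include Mrps30 and Mrps36, which are not small-subunit proteins in the present view.

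Mrpl47, a large-subunit protein (chr3:32725397-32737605, minus strand, GRCm38), ran from 277 to 422 CPM with a median of 349 in the 8 IgG CL libraries and from 149 to 206 CPM with a median of 185 in the 8 IgG UUO libraries. The groups did not overlap, and Mrpl47 fell by 0.93 ± 0.16 on the log2 scale (SE, n = 8 and 8, edgeR adjusted p = 1.5e-05). Mrpl12 (chr11:120484613-120489065, plus strand) ran from 177 to 373 CPM (median 273) in CL and from 86.9 to 219 CPM (median 154) in UUO libraries. The ranges overlapped, and Mrpl12 fell by 0.92 ± 0.23 (edgeR adjusted p = 0.0019).

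Mrpl34, a short protein of the large subunit whose bacterial counterpart is L34, ran from 50.5 to 151 CPM (median 112) in CL and from 30.0 to 66.9 CPM (median 59.5) in UUO libraries. It fell by 0.95 ± 0.30 (edgeR adjusted p = 0.013), again with overlapping ranges. Mrps36, named for the small subunit but now known as a subunit of the 2-oxoglutarate dehydrogenase complex of the citric acid cycle, had the lowest log2 fold change, −0.97 ± 0.24 (edgeR adjusted p = 0.0017). Its levels were 46.6 to 102 CPM (median 70.2) in CL and 28.1 to 58.9 CPM (median 35.0) in UUO libraries. Also lower were Mrps5 (−0.69), whose bacterial counterpart contributes to decoding accuracy, Mrps34 (−0.58), Mrps22 (−0.49), Mrpl44 (−0.48), which has an RNase III-like fold, and Mrpl58 (−0.41), a release factor that rescues stalled ribosomes. Mrpl3 (−0.39), Mrpl11 (−0.17), Mrps2 (−0.34), Mrps7 (−0.36), Mrps12 (−0.25), Mrps16 (−0.62), Mrps30 (−0.01) and Mrps18a, Mrps18b and Mrps18c (−0.35, 0.20 and −0.14), paralogs of bacterial S18, did not pass the test.

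**Figure D1:**
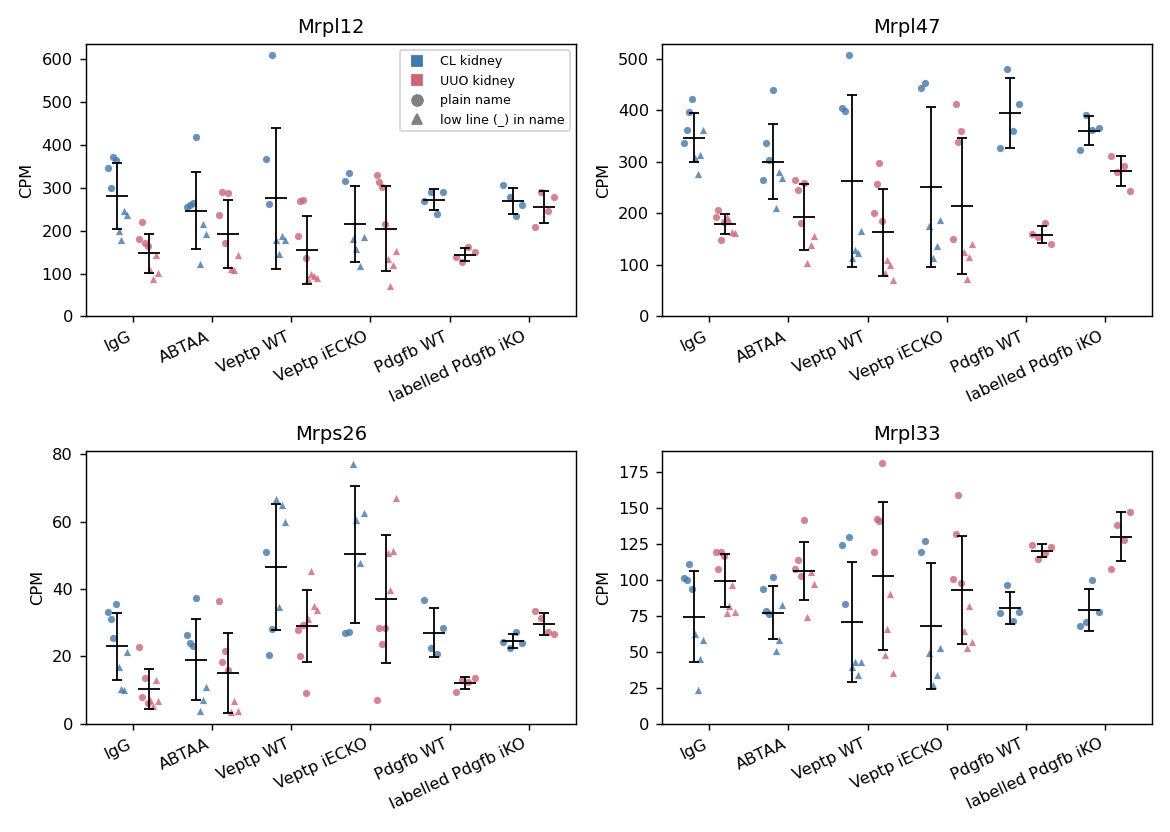
CPM (y axis) of Mrpl12, Mrpl47, Mrps26 and Mrpl33 in each library, by group along the x axis; each point is 1 library (circles for plain and triangles for low-line names), and bars give the group mean and SD. Mrpl47 runs from 277 to 422 in IgG CL and from 149 to 206 in IgG UUO libraries, while Mrpl33 lies between 114 and 124 in the Pdgfb WT UUO libraries, above the 71.0 to 96.4 of Pdgfb WT CL libraries.

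In Pdgfb WT mice, 40 members were lower in UUO kidneys and 2 were higher, against a background of 19.4% of tested genes lower and 17.9% higher. The median was −0.41 for the members and 0.04 for all 10923 tested genes. By symbol, 26 Mrpl members (median −0.39) and 14 Mrps members (median −0.49) were lower. Of the members that were lower in IgG-treated or in Pdgfb WT mice, 21 were lower in both, which is 75.0% of the 28 and 52.5% of the 40. Over the 9558 genes tested in both arms, 1453 were lower in both, a larger share of each list (83.5% of 1740 and 71.6% of 2030). The mice of these comparisons are separate.

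Pdgfb WT kidneys had 326, 481, 359 and 411 CPM of Mrpl47 on the CL side and 160, 153, 181 and 141 CPM on the UUO side. It had the lowest log2 fold change here, −1.29 ± 0.13 (edgeR adjusted p = 3.2e-08), with no overlap. Mrps26, a mitochondria-specific small-subunit protein (chr2:130563742-130568695, plus strand), was at 36.7, 22.4, 20.7 and 28.3 CPM in CL and at 9.35, 13.0, 12.2 and 13.6 CPM in UUO libraries. It fell by 1.18 ± 0.22 (edgeR adjusted p = 0.00013), and every UUO library lay below every CL library. Mrpl42, another protein without a bacterial counterpart, fell by 1.11 ± 0.15 (edgeR adjusted p = 2.6e-06). Mrpl12 was at 269, 289, 238 and 291 CPM in CL and at 138, 127, 161 and 149 CPM in UUO libraries, a fall of 0.90 ± 0.13 (edgeR adjusted p = 4.1e-06) without overlap.

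The members that rose were Mrpl33 and Mrpl52. Mrpl33, a small protein of the large subunit with a bacterial counterpart (chr5:31596935-31664384, plus strand), was at 76.8, 96.4, 71.0 and 77.6 CPM in CL and at 124, 114, 119 and 123 CPM in UUO libraries. It rose by 0.59 ± 0.14 (edgeR adjusted p = 0.0016). Mrpl52, a large-subunit protein without a bacterial counterpart (chr14:54426909-54429756, plus strand), was at 36.7, 55.9, 35.5 and 51.4 CPM in CL and at 78.6, 73.3, 73.0 and 82.8 CPM in UUO libraries. It rose by 0.78 ± 0.17 (edgeR adjusted p = 0.00052). For both genes every UUO library lay above every CL library, the reverse of Mrpl47, Mrpl12 and Mrps26 in the same kidneys. Exons of Mrpl33 overlap those of another gene on the same strand.

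In Veptp WT mice, 4 members were lower and 0 higher, against a background of 8.38% lower and 10.0% higher, with 69 members below 0 and a median of −0.29 (−0.01 for all 11916 tested genes). Mrpl4, a large-subunit protein with a bacterial counterpart, ran from 68.5 to 156 CPM (median 121) in CL and from 30.7 to 103 CPM (median 58.8) in UUO libraries, and fell by 0.82 ± 0.29 (edgeR adjusted p = 0.044). The other 3 were Mrpl10 (−0.63), which anchors Mrpl12 in the stalk, Mrpl42 (−0.61) and Mrps34 (−0.60). The ranges overlapped for each of the 4. The share of members called lies below the background here, and the count ran from 1 to 6 lower when each library of the arm was left out in turn (1 without UUO replicate 4, 2 without CL replicate 6 or 7). The libraries of this arm spread widely. Mrpl12 ran from 145 to 608 CPM within the Veptp WT CL libraries. Over the arm it ran from 135 to 608 CPM in plain and from 72.0 to 187 CPM in low-line libraries.

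With the name form as a covariate, 26 members were lower and 1 was higher in Veptp WT mice, against a background in that fit of 17.3% of tested genes lower and 16.6% higher. In IgG-treated mice 36 were then lower and 1 was higher, against 21.4% and 18.9%. Mrpl33 was the member that rose in both, by 0.51 ± 0.18 (edgeR adjusted p = 0.023) and 0.48 ± 0.15 (edgeR adjusted p = 0.011). Without the libraries numbered 3, 4, 7 and 8, 0 members were lower in Veptp WT mice (background 2.71% lower and 4.67% higher), and 16 were lower with the name form as a covariate (10.6% and 10.2%). The medians were −0.29 and −0.31. Over the 3 control comparisons, 65 of the 78 members lay below 0 in each.

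**Figure D2:**
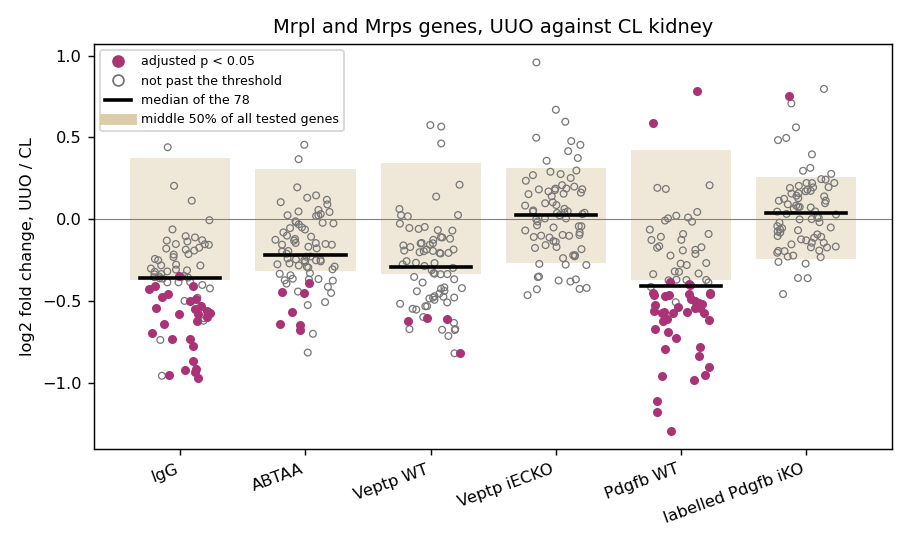
Log2 fold change of UUO against CL kidneys (y axis) for the 78 members in each of the 6 kinds of mice (x axis); each point is 1 member, filled where it passed the adjusted p threshold, the line marks the median, and the band spans the middle of all tested genes. The points lie mostly below 0 in IgG-treated, Pdgfb WT and Veptp WT mice (medians −0.36, −0.41 and −0.29) and around 0 in Veptp iECKO mice and libraries labelled Pdgfb iKO (0.03 and 0.04).

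The second question was how the members respond in mice with TIE2 activation or Pdgfb deletion. With ABTAA, 7 members were lower in UUO than in CL kidneys and 0 were higher, against a background of 12.5% lower and 12.6% higher; the median was −0.22 and 63 members lay below 0. Mrpl47 ran from 210 to 439 CPM (median 279) in CL and from 104 to 264 CPM (median 182) in UUO libraries, and fell by 0.64 ± 0.17 (edgeR adjusted p = 0.0037). Mrps6, whose exons overlap Slc5a3 on the same strand, fell by 0.68 ± 0.23 (edgeR adjusted p = 0.024) and Mrps23 by 0.65 ± 0.22 (edgeR adjusted p = 0.026). Mrps5 was at −0.44 ± 0.16 (edgeR adjusted p = 0.044). In the libraries of the 3 mice whose numbers pair their kidneys, with the mouse as a block, it was at −0.46 ± 0.22 (edgeR adjusted p = 0.12). When libraries were thinned, it was at 0.17 on the log2 scale. The ranges of CL and UUO libraries overlapped for all 4 of these.

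The count in ABTAA-treated mice moved with the design, and ran from 3 to 13 lower when each library of the arm was left out in turn. It was 16 lower and 1 higher with the name form as a covariate, against a background in that fit of 16.8% and 15.4%. Among the libraries of the mice whose numbers pair their kidneys, it was 13 lower and 1 higher with the mouse as a block (background 17.0% and 14.4%) and 8 lower and 0 higher without (13.1% and 11.2%). Against IgG directly, 0 of the 78 members differed in UUO kidneys, in CL kidneys or in the size of the UUO response (median differences 0.08, −0.13 and 0.20 on the log2 scale). Of all 9579 tested genes 0.0% were called in these 3 comparisons, 1, 2 and 2 members had an unadjusted p under 0.05, and DESeq2 called 0 as well. ABTAA and IgG responses are thus not shown to differ.

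In Veptp iECKO mice, 0 members were called in either direction by edgeR or DESeq2 (2 at an unadjusted p under 0.05 in edgeR), against a background of 3.48% lower and 4.47% higher, and the median was 0.03. With the name form as a covariate, 4 were lower and 1 was higher, against a background in that fit of 10.8% and 10.7%, and the median became −0.09. Mrps34 ran from 56.9 to 112 CPM (median 95.3) in CL and from 70.5 to 126 CPM (median 90.3) in UUO libraries, which overlapped widely. Between genotypes, 0 members differed in UUO kidneys, CL kidneys or the UUO response (medians 0.18, −0.11 and 0.29), 0.0% of tested genes were called, and 2, 0 and 3 members had an unadjusted p under 0.05. DESeq2 and the fits without the libraries numbered 3, 4, 7 and 8 called 0 members in these 3 comparisons as well.

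In the libraries labelled Pdgfb iKO, 0 members were lower in UUO than in CL kidneys and 1 was higher, against a background of 2.42% lower and 3.95% higher, and the median was 0.04. The member that rose was Mrpl33, at 68.1, 70.2, 100 and 77.8 CPM in CL and at 107, 138, 127 and 147 CPM in UUO libraries. It rose by 0.75 ± 0.15 (edgeR adjusted p = 0.0025), and no UUO library lay below a CL library. Mrpl47 was at 324, 391, 361 and 366 CPM in CL and at 311, 279, 292 and 243 CPM in UUO libraries, which did not overlap, yet it did not pass the test.

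In UUO kidneys, 29 members were higher in libraries labelled Pdgfb iKO than in Pdgfb WT libraries and 0 were lower, against a background of 12.0% of tested genes higher and 6.6% lower. The median was 0.37 for the members and −0.02 for all tested genes, and 76 of 78 lay above 0. By symbol, 18 of 49 Mrpl members (median 0.36) and 11 of 29 Mrps members (median 0.37) were higher. Mrps21, with the lowest p, measured 122, 102, 109 and 101 CPM in the Pdgfb WT libraries. The UUO libraries labelled Pdgfb iKO had 231, 204, 202 and 179 CPM of it, a difference of 0.88 ± 0.13 (edgeR adjusted p = 2e-05). Mrpl12 was at 208, 289, 245 and 279 CPM in the latter, 0.83 ± 0.13 above Pdgfb WT (edgeR adjusted p = 6.2e-05). Mrps26 was at 33.5, 31.4, 27.4 and 26.5 CPM, 1.25 ± 0.22 above Pdgfb WT (edgeR adjusted p = 0.00019).

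For Mrps21, Mrpl12, Mrps26 and Mrpl47 (0.80 ± 0.13, edgeR adjusted p = 0.00012) every UUO library labelled Pdgfb iKO lay above every Pdgfb WT UUO library. Mrpl20, a large-subunit protein with a bacterial counterpart, was 0.69 ± 0.13 higher (edgeR adjusted p = 0.00035). Mrpl33 and Mrpl52, which had risen in Pdgfb WT mice, overlapped between the genotypes, Mrpl52 at 77.0, 66.2, 63.3 and 74.1 CPM in UUO libraries labelled Pdgfb iKO. In CL kidneys 0 members differed between the genotypes and 0.0% of tested genes were called, with 7 members at an unadjusted p under 0.05 and 0 called by DESeq2. Counts of both Xist and Y-linked genes were found in 4 of 4 UUO libraries labelled Pdgfb iKO, 2 of 4 Pdgfb WT UUO, 2 of 4 Pdgfb WT CL and 0 of 4 CL libraries labelled Pdgfb iKO; their part in the result was not tested. Gm42418 and AY036118, genes whose reads derive from ribosomal RNA, took 7.67% to 10.7% of the counts in UUO libraries labelled Pdgfb iKO and 5.41% to 7.34% in Pdgfb WT UUO libraries, without overlap. The part of this share in the result was not tested.

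The UUO response itself differed between the libraries labelled Pdgfb iKO and Pdgfb WT for 13 members, all with the higher log2 fold change in the former, against a background of 6.66% of tested genes in that direction and 1.9% in the other. The median difference was 0.43 and 72 members lay above 0. Mrps21 had a difference of 1.08 ± 0.18 (edgeR adjusted p = 0.00045), with 198, 256, 207 and 190 CPM in Pdgfb WT CL and 191, 176, 184 and 188 CPM in CL libraries labelled Pdgfb iKO. The next were Mrpl47 (0.93 ± 0.19, edgeR adjusted p = 0.0024), Mrps14 (0.79 ± 0.16, edgeR adjusted p = 0.0026), Mrpl20 (0.86 ± 0.18, edgeR adjusted p = 0.0034) and Mrpl12 (0.84 ± 0.18, edgeR adjusted p = 0.0047). Mrps30 was also called (1.21 ± 0.36, edgeR adjusted p = 0.034). It was at 39.0, 28.0, 34.0 and 34.6 CPM in Pdgfb WT CL, 16.7, 35.1, 18.2 and 19.0 CPM in CL libraries labelled Pdgfb iKO, 19.3, 34.3, 19.3 and 30.2 CPM in Pdgfb WT UUO and 30.1, 35.9, 29.9 and 46.0 CPM in UUO libraries labelled Pdgfb iKO. For Mrps30, 3 of the 4 CL libraries labelled Pdgfb iKO lay below every library of the other groups of the arm.

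With all 12 groups in 1 fit, 8 members were lower and 0 higher in Pdgfb WT mice, against a background of 10.2% in each direction. Mrpl33 was then not called in the libraries labelled Pdgfb iKO (background 0.0491% lower and 0.975% higher). In that fit 0 members were called between genotypes in UUO kidneys (background 0.5% lower and 2.14% higher) or in the response (0.0% and 0.0819%). When libraries were scaled by their totals alone, without TMM factors, the median of all tested genes moved to 0.41 in Pdgfb WT UUO against CL and to −0.29 between genotypes in UUO kidneys, and the members' medians lay −0.45 and 0.39 from it. The counts were then 10 lower and 5 higher in Pdgfb WT mice (background 10.6% and 40.8%) and 1 lower and 9 higher between genotypes (22.9% and 6.01%).

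**Figure D3:**
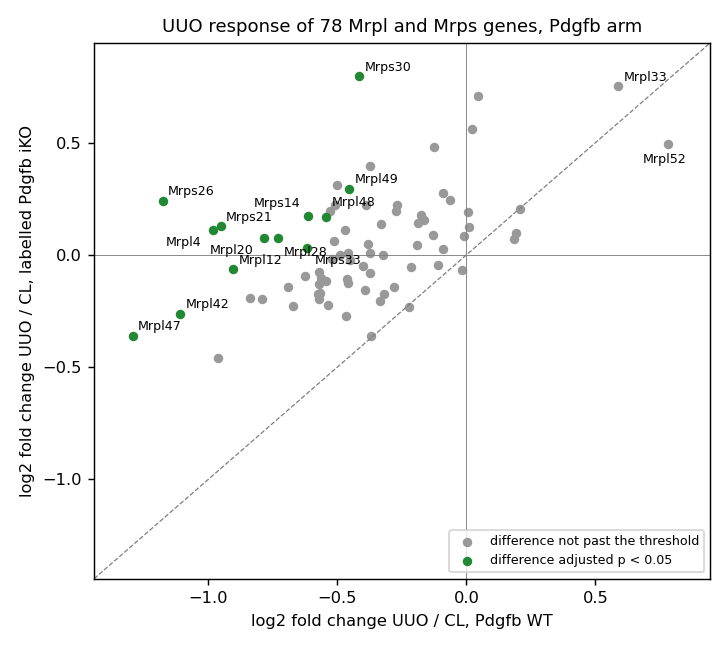
Log2 fold change of UUO against CL for each of the 78 members in Pdgfb WT mice (x axis) and in libraries labelled Pdgfb iKO (y axis); each point is 1 member, green where the difference of the responses passed the adjusted p threshold, and the diagonal marks equal responses. Of the 78 points, 72 lie above the diagonal, and Mrpl33 is high on both axes (0.59 and 0.75).

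The summed level of the 78 members gives the same groups as 1 value per kidney. It was 7367 ± 946 CPM (SD, n = 8) in IgG CL and 5348 ± 534 CPM (n = 8) in IgG UUO libraries, a ratio of 0.726. In Pdgfb WT it was 7513 ± 529 CPM in CL and 5308 ± 152 CPM in UUO libraries (n = 4 each), a ratio of 0.707, while the libraries labelled Pdgfb iKO had 7265 ± 258 and 7185 ± 531 CPM (n = 4 each), a ratio of 0.989. The 4 UUO libraries labelled Pdgfb iKO ran from 6636 to 7667 CPM and lay above the 5120 to 5488 CPM of Pdgfb WT UUO libraries.

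The ratio was 0.855 with ABTAA, from 6675 ± 1302 to 5705 ± 1222 CPM (n = 7 each), with overlapping ranges. In the 3 mice whose numbers pair their kidneys the sum was lower on the UUO side each time, at 4826 and 3980, 6338 and 4844, and 5998 and 4811 CPM in CL and UUO. The ratio was 0.778 in Veptp WT, from 6756 ± 2567 (n = 7) to 5259 ± 1506 CPM (n = 8), and 0.991 in Veptp iECKO mice, from 6081 ± 1550 (n = 6) to 6027 ± 1705 CPM (n = 8). Within plain and low-line libraries the ratios were 0.708 and 0.748 for IgG, 0.890 and 0.795 for ABTAA, 0.706 and 0.815 for Veptp WT and 0.920 and 0.917 for Veptp iECKO. As a share of the library total, without TMM factors, the ratio was 0.842 for IgG and 0.917 for Pdgfb WT.

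**Figure D4:**
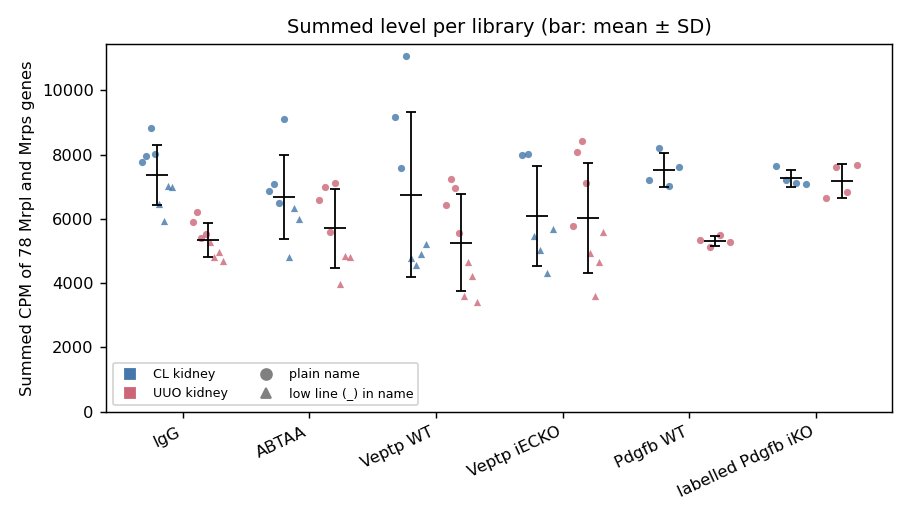
Summed CPM of the 78 members (y axis) in each library, by group (x axis), with circles for plain and triangles for low-line names; bars give the group mean and SD. Pdgfb WT UUO libraries lie between 5120 and 5488 and UUO libraries labelled Pdgfb iKO between 6636 and 7667, while in the Veptp arm the name forms lie apart within every group.

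Markers of cell types changed in the same kidneys. All 9 proximal tubule markers fell with UUO in IgG-treated mice (median −1.27) and in Pdgfb WT mice (median −1.56). They numbered 7 lower with ABTAA, 6 in Veptp WT, 4 in Veptp iECKO and 4 in the libraries labelled Pdgfb iKO. With the name form as a covariate, 8 were lower with ABTAA (median −0.71), 9 in Veptp WT (median −0.70) and 7 in Veptp iECKO mice (median −0.78). All 9 were higher in UUO libraries labelled Pdgfb iKO than in Pdgfb WT UUO (median 0.93). Their summed level was 18591 to 20052 CPM in Pdgfb WT CL, 4361 to 5701 CPM in Pdgfb WT UUO and 9434 to 25070 CPM in UUO libraries labelled Pdgfb iKO. Among tested markers, 5 of 5 leukocyte and 6 of 6 fibroblast markers rose with UUO in IgG-treated and in Pdgfb WT mice, and 3 and 5 of them were lower in UUO libraries labelled Pdgfb iKO than in Pdgfb WT UUO. The summed leukocyte level was 271 to 351 CPM in the former and 418 to 609 CPM in the latter, and the summed fibroblast level 380 to 934 and 1040 to 1456 CPM. Markers of other kidney cells were lower for 4 of 7 in IgG-treated (median −1.02) and 5 of 7 in Pdgfb WT mice (median −1.19), and higher for 4 of 7 between the genotypes in UUO kidneys. Red blood cell markers were lower for 3 of 4 and 2 of 4 in these mice, and higher for 3 of 4 between genotypes. Cell cycle genes rose for 6 of 6 in IgG-treated (median 1.79) and 5 of 6 in Pdgfb WT mice (median 1.26), and 2 of 6 were lower between genotypes. Endothelial markers rose for 2 of 5 and 1 of 5, and 2 of 5 were lower between genotypes. With the name form as a covariate, 2 of 5 were lower with UUO in Veptp iECKO mice (median −0.52) and 0 were called in Veptp WT mice (median 0.26). The 1 tested adipocyte marker was higher with UUO in IgG-treated mice in that fit (3.07). In whole kidneys, fewer cells of a type and less RNA per cell cannot be told apart, and the part of these markers in the members' changes was not tested.

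Related gene lists, chosen with earlier results known, show where the members lie among mitochondrial genes. Of the 13 protein-coding genes of mitochondrial DNA, 11 fell in IgG-treated (median −0.96) and 13 in Pdgfb WT mice (median −1.48), and 13 were higher in UUO libraries labelled Pdgfb iKO than in Pdgfb WT (median 1.09). Of 36 tested nuclear subunits of complex I, the first enzyme of the respiratory chain, 30 fell in IgG-treated (median −0.86) and 35 in Pdgfb WT mice (median −1.0), and 36 were higher between genotypes (median 0.82). The members' medians lay closer to 0 than those of both lists in each of these comparisons. Of the proteins of the cytosolic ribosome, 0 of 80 were lower and 20 higher in IgG-treated mice (median 0.34). In Pdgfb WT mice 2 of 81 were lower and 14 higher (median 0.08), a share of higher calls near the background of 17.9%.

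Among the 13 tested mitochondrial translation factors, 7 fell in IgG-treated mice (median −0.47) and 6 in Pdgfb WT mice (median −0.34), and 5 were higher between genotypes in UUO kidneys (median 0.31). Gfm1, the elongation factor that moves the ribosome along its message, fell by 0.86 ± 0.17 (edgeR adjusted p = 0.00013) and by 0.97 ± 0.16 (edgeR adjusted p = 3.1e-05). Tufm, the factor that brings charged tRNA, fell by 0.60 and 0.71, and the initiation factor Mtif3 by 0.61 and 0.47. Of the mitochondrial aminoacyl-tRNA synthetases and related enzymes, 2 of 16 fell in IgG-treated and 5 of 18 in Pdgfb WT mice, among them Gatb of the glutaminyl-tRNA amidotransferase (−0.96 and −1.03). Assembly factors of the mitoribosome counted 1 of 19 and 2 of 24 lower, and mitoribosome proteins under other symbols 3 of 6 and 1 of 6. The background of genes lower was 18.2% and 19.4%. The shares of the synthetases in IgG-treated mice, of the assembly factors in both and of the mitoribosome proteins under other symbols in Pdgfb WT mice lay below it.

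Tfam, which packages mitochondrial DNA and starts its transcription, fell by 0.45 in IgG-treated mice (edgeR adjusted p = 0.039) and had −0.52 in Pdgfb WT mice (edgeR adjusted p = 0.052). Of the regulators of mitochondrial biogenesis, the coactivator Ppargc1a fell by 1.12 ± 0.21 and 0.74 ± 0.16, and its nuclear receptor partner Esrra by 1.23 ± 0.23 and 1.02 ± 0.20. With the name form as a covariate, 3 of 8 regulators were lower and 1 higher in IgG-treated mice (median −0.08, background 21.4% and 18.9%). In Veptp WT mice 2 of 9 were then lower and 2 higher (median −0.08, background 17.3% and 16.6%). Between genotypes in UUO kidneys Esrra was higher by 0.64 ± 0.20 (edgeR adjusted p = 0.027), while Ppargc1a had 0.27 ± 0.17 (edgeR adjusted p = 0.29). Nrf1 was not called in these comparisons, with 0.45 and 0.25 in control mice. Gabpa passed the threshold only in Pdgfb WT mice (−0.39, edgeR adjusted p = 0.041), and whether its response differs from that of IgG-treated mice was not tested. Myc rose by 2.35 and 3.05. Members with and without an ETS core in the promoter had medians of −0.39 and −0.36 in IgG-treated mice, −0.39 and −0.41 in Pdgfb WT mice and −0.17 and −0.42 in Veptp WT mice.

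In the main fits of the Veptp arm, more members differed between the library name forms than between UUO and CL kidneys. The forms were compared over 13 plain and 16 low-line libraries with the group in the fit. The kidneys were compared within each kind of mice without the name form, so these counts are of unlike power. Between the forms of that arm, 56 members were lower and 14 higher in low-line than in plain libraries, against a background of 28.4% of tested genes lower and 34.0% higher, and the median was −0.67 (0.09 for all genes). In the ABTAA arm 42 were lower and 4 higher, against 21.2% and 18.6%, and the median was −0.33 (0.01 for all genes). Mrpl51 had the largest difference, −2.23 ± 0.09 in the Veptp arm (edgeR adjusted p = 8.1e-21), with 172 to 331 CPM (median 226) in 13 plain and 31.5 to 67.3 CPM (median 52.0) in 16 low-line libraries. Mrpl52 and Mrpl34 followed with −2.16 and −2.14, and Mrps16, a small-subunit protein with a bacterial counterpart, with −2.06. Mrpl38 went the other way by 2.10 ± 0.14 (edgeR adjusted p = 1.9e-15), at 6.18 to 36.2 CPM (median 20.0) in plain and 62.8 to 116 CPM (median 88.0) in low-line libraries. For Mrpl51 and Mrpl38 the forms did not overlap. Gm42418 and AY036118 took 9.18% to 21.8% of the counts in plain and 0.325% to 0.778% in low-line libraries of the Veptp arm, and 7.32% to 18.7% and 3.89% to 5.91% in the ABTAA arm. The part of this share in the difference was not tested.

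Mrps26 differed in opposite directions between the arms. In the ABTAA arm it was 1.45 ± 0.19 lower in low-line libraries on the log2 scale, with medians of 23.5 CPM in 16 plain and 7.04 CPM in 14 low-line libraries. In the Veptp arm it was 0.90 ± 0.16 higher, with medians of 27.2 and 51.0 CPM. In the ABTAA arm Mrpl52 (−1.20), Mrps21 (−1.18), Mrpl54 (−1.11) and Mrpl34 (−1.03) came next, and the 4 that were higher were Mrps27 (0.72), Mrps18b (0.54), Mrpl1 (0.36) and Mrpl45 (0.34). Members with shorter exons had lower medians than those with longer exons, −0.48 against −0.21 in the ABTAA arm and −0.90 against −0.52 in the Veptp arm. Members with an ETS core in the promoter had medians of −0.48 and −0.96 in these arms, against −0.25 and −0.53 for those without. Cytosolic ribosomal proteins were lower for 51 and higher for 4 in the ABTAA arm and lower for 80 in the Veptp arm (median −2.12).

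The UUO response was not shown to differ between name forms for any member. In both arms 0 members were called in that difference, against 0.0209% of tested genes lower and 0.0104% higher in the ABTAA arm and 0.294% and 0.143% in the Veptp arm, and 2 and 1 members had an unadjusted p under 0.05. DESeq2 called 0 in both arms. The medians of the difference were −0.05 and 0.03.

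**Figure D5:**
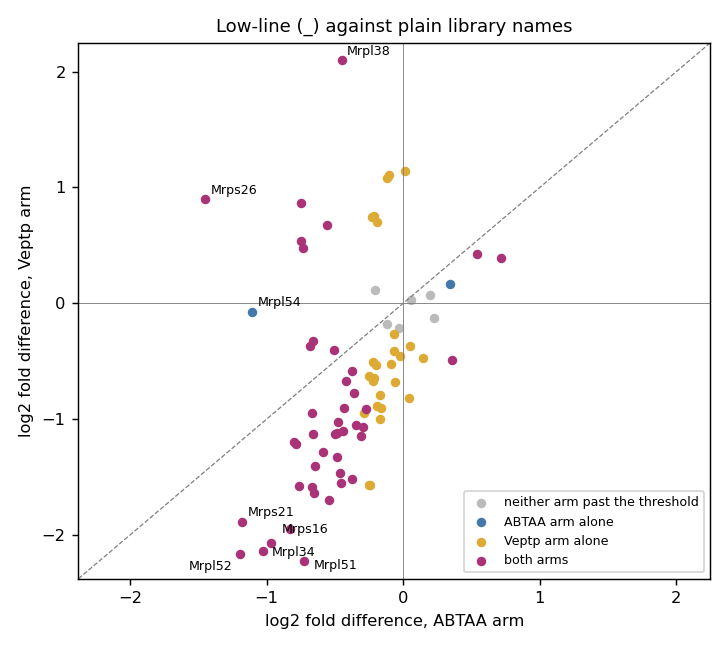
Log2 fold change of low-line against plain libraries for each of the 78 members in the ABTAA arm (x axis) and the Veptp arm (y axis); each point is 1 member, coloured by the arms in which it passed the adjusted p threshold. Most points lie below 0 on both axes, and Mrps26 lies at −1.45 and 0.90.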

How the data were processed

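Per the study's methods, RNA of each kidney was run in 4 wells, whose reads the authors merged, aligned with STAR (2.7.3a), collapsed by unique molecular identifier with UMI-tools (1.1.4) and summarised as counts per gene with featureCounts of Subread (1.4.6-p5). The submitters' processing notes name the same tools and give the build as mm10. Neither annotation nor strand setting is given in the sources used here. The deposited counts are whole numbers per gene and library and were used as they are. Each library is 1 kidney, and 1 count was worth 0.427 to 5.79 CPM.

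Each arm was fitted on its own with the quasi-likelihood test of edgeR (4.0.16, R 4.3.3), TMM factors, filterByExpr by group, and Benjamini-Hochberg adjustment over 9579 (ABTAA), 11916 (Veptp) or 10923 (Pdgfb) tested genes, with a threshold of 0.05; the study used the exact test of edgeR, which was an alternative here. CPM were computed with library totals adjusted by TMM factors. SE were taken from the F statistic, as the absolute log2 fold change over the root of F. The fit was tested on simulated data with known changes. Positions came from the GRCm38 annotation and promoters from RefSeq.

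Members and lists were chosen with earlier results of these data known. Named members were the called ones with the lowest and highest log2 fold changes in each UUO comparison (up to 3 each), the 5 with the lowest adjusted p in other comparisons, those of the rarer direction, the 3 highest and lowest in level, and members fixed for their function. Mrps23, Mrpl42 and Mrpl10 and single values of other members outside that rule were chosen after their values were seen.

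Library numbers pair the kidneys of 3 ABTAA-treated mice, whose CL and UUO libraries deviated together from their group means (r = 0.16 to 0.39) while unmatched pairs did not (r = −0.27 to 0.10). In the Veptp arm 6 of 8 same-number pairs had r over 0.1, with a mean of 0.22 against −0.03 for different numbers. However, 4 of the 8 carry opposite genotype labels (mean r of 0.27). The numbers were not taken as pairs there, and the block was fitted as an alternative alone. Alternatives were another scaling (none, or DESeq2 1.42.0), other filters, the exact test, other sets of groups, thinning to the shallowest library, the name form, the replicate block and leaving out libraries; those without the libraries numbered 3, 4, 7 and 8 and the same-number libraries fitted without a block were added after seeing the data. Separate culture or litter of the mice is not in the labels, so p-values measure the spread between these kidneys.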

Additional observations from a re-analysis of the deposited data

Results flagged for a closer look

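The UUO response differed between libraries labelled Pdgfb iKO and Pdgfb WT libraries for 13 members by the test of the difference itself. The number was 0 with all 12 groups in 1 fit (0.0819% of all tested genes higher), 3 without TMM factors (2.86%) and 6 when libraries were thinned (5.23%), against 6.66% beside the 13. The mean level of Pdgfb goes against the label in CL kidneys (10.4 CPM in Pdgfb WT and 19.0 CPM in Pdgfb iKO) and with it in UUO kidneys (52.6 and 37.1 CPM). The CL ranges overlapped, and 0.0% of tested genes were called between the genotypes in CL kidneys. Markers of tubule, leukocytes and fibroblasts differed between the same UUO groups. The part of the Pdgfb level and of these markers in the result was not tested.

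For 14 members and the sum of the 78, the highest and the lowest library of each group of 4 to 8 were set against the rest by Dixon's test. The test flags about 1 in 20 groups by chance, and 5 of 180 groups were flagged, a smaller share. Mrpl52 was at 114 CPM in ABTAA CL replicate 4, where the other 6 libraries ran from 28.4 to 63.8 CPM. Mrpl38 was at 65.5 CPM in IgG CL replicate 2, against 14.8 to 24.9 CPM in the others, and at 7.79 CPM in IgG UUO replicate 6, against 16.9 to 24.5 CPM. Mrps30 was at 35.1 CPM in CL replicate 2 labelled Pdgfb iKO, against 16.7 to 19.0 CPM. Mrpl4 was at 68.4 CPM in UUO replicate 2 labelled Pdgfb iKO, against 46.2 to 47.6 CPM.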

How the results depend on the processing

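Counts are members lower and higher, from the main 28 and 0 (IgG), 7 and 0 (ABTAA), 4 and 0 (Veptp WT), 0 and 0 (Veptp iECKO), 40 and 2 (Pdgfb WT) and 0 and 1 (Pdgfb iKO) for UUO against CL kidneys; where no cause is named, it was not tested. Without TMM factors they were 12 and 1, 2 and 1, 0 and 0, 0 and 0, 10 and 5 and 0 and 2, with 10 called between the Pdgfb genotypes in UUO kidneys (29 in the main fit) and 3 in the difference of responses (13). Of all tested genes, 11.3% and 26.0% (IgG), 8.31% and 16.6% (ABTAA), 4.56% and 11.6% (Veptp WT) and 2.03% and 5.14% (Veptp iECKO) were lower and higher. In the Pdgfb arm these shares were 10.6% and 40.8% (WT), 1.39% and 5.19% (iKO), 22.9% and 6.01% between genotypes and 6.12% and 2.86% in the difference. The median of all tested genes then moved to 0.23 (IgG), 0.14 (ABTAA), 0.14 (Veptp WT), 0.12 (Veptp iECKO) and 0.41 (Pdgfb WT). Thinning every library to the shallowest one left 65 to 75 members tested and gave 10 and 1 for IgG, 1 lower for ABTAA, 2 lower for Veptp WT, 21 lower for Pdgfb WT, 12 between genotypes, 6 in the difference, 25 lower for the name form in the ABTAA arm (42 in the main fit) and 9 higher in the Veptp arm (14). Of all tested genes, 18.5% and 17.0% (IgG), 10.4% (ABTAA), 6.63% (Veptp WT) and 16.7% (Pdgfb WT) were then called in these directions. Between genotypes 5.06% were lower and 9.87% higher, and in the difference 1.07% and 5.23%. For the name form 17.1% were lower in the ABTAA arm and 33.2% higher in the Veptp arm. A mean count of 20 or more gave 17 and 1 for IgG (20.8% and 20.5% of all tested genes), 4 lower for ABTAA (14.7%) and 2 for Veptp WT (9.45%). No filter gave 1 lower for Veptp WT (4.0%). The exact test and the compared groups alone each gave 4 and 1 for ABTAA and 2 lower for Veptp WT. For ABTAA 12.2% and 11.4% of all tested genes were called by the exact test, and 11.9% and 11.1% in the compared groups. For Veptp WT 8.42% and 7.99% were lower. All 12 groups in 1 fit gave 18 lower for IgG (13.8% of all tested genes), 14 for Veptp WT (12.7%), 1 for Veptp iECKO (7.05%) and 8 for Pdgfb WT (10.2%). In that fit 0 were higher in Pdgfb WT (10.2%) and 0 in Pdgfb iKO (0.975%). Between genotypes 0 were called (0.5% lower and 2.14% higher), and 0 in the difference (0.0% and 0.0819%).

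With the name form as a covariate the counts were 36 and 1 (IgG), 16 and 1 (ABTAA), 26 and 1 (Veptp WT) and 4 and 1 (Veptp iECKO). The shares of all tested genes were 21.4% and 18.9%, 16.8% and 15.4%, 17.3% and 16.6%, and 10.8% and 10.7%. Plain libraries alone gave 16 lower for IgG, 1 for ABTAA and 7 for Veptp WT, where 12.6%, 4.37% and 6.7% of all tested genes were lower. Low-line libraries alone gave 20 and 1 for IgG (15.4% and 13.7% of all), 13 lower for Veptp WT (11.9%) and 1 and 1 for Veptp iECKO (10.6% and 10.5%). Over the edgeR alternatives other than leaving out libraries, the share of all tested genes lower ran from 7.75% to 21.4% (IgG), 4.37% to 17.0% (ABTAA), 2.71% to 17.3% (Veptp WT), 0.0% to 14.4% (Veptp iECKO) and 8.55% to 22.2% (Pdgfb WT). Without the libraries numbered 3, 4, 7 and 8, Veptp WT had 0 lower (2.71% of all tested genes), and 16 with the name form as a covariate (10.6%). With the replicate block, the libraries sharing a number gave 13 and 1 for ABTAA (8 and 0 without it). They gave 9 lower for Veptp WT (13 without it) and 4 and 1 for Veptp iECKO (1 and 1 without it), although Veptp numbers were not taken as pairs. Of all tested genes, 17.0% were lower and 14.4% higher with the block for ABTAA (13.1% and 11.2% without it). For Veptp WT 11.4% were lower (11.9% without it). For Veptp iECKO 14.4% were lower and 12.0% higher (10.6% and 10.5% without it). No block was fitted for IgG or the Pdgfb arm, where low-line names share no number between CL and UUO or are lacking. The numbers of plain names recur within a group and so mark no replicate. Leaving out each library in turn gave 20 to 34 lower and 0 to 1 higher for IgG (1 higher without IgG CL replicate 3), 1 to 6 lower for Veptp WT (2 without CL replicates 6 or 7, 1 without UUO replicate 4), 32 to 42 lower for Pdgfb WT and 1 to 2 higher for Pdgfb iKO (2 without CL replicate 2), with 20 to 36 between genotypes and 9 to 15 in the difference. For ABTAA it gave 3 to 13 lower (3 without ABTAA CL replicate 4 or UUO replicates 5 or 6; 11 to 13 without IgG CL replicates 3, 6 or 8, ABTAA CL replicate 5 or ABTAA UUO replicates 1, 2 or 4). DESeq2 gave 25, 10, 4, 0, 37 and 0 lower. Shares of all tested genes are not given for DESeq2 or for leaving out libraries. Those counts are therefore not read as results about the members.

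The summed UUO to CL ratio was 0.842 for IgG and 0.917 for Pdgfb WT as a share of the library total, and 0.762 for Pdgfb WT as a mean of log2 levels. Of 2595 alternative values of named members, 2402 kept their direction and side of the threshold, 189 kept the direction alone and 4 turned: Mrps5 with ABTAA was 0.17 when thinned, and in the Veptp arm's name forms Mrpl44 was 0.0449, Mrps7 0.0029 and Mrps34 0.14 without TMM factors. At a depth of 172827 counts in the shallowest library, 1 count was worth 5.79 CPM.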
